A study of Caenorhabditis elegans with 2 samples.

Results

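The genes described here are the small nucleolar RNA (snoRNA) genes of Caenorhabditis elegans that lie inside a protein-coding gene, and the measurement is where the chromatin protein LIN-54 was found around them. A snoRNA gene was a member when its whole length fell within the span of a protein-coding gene on the same strand in the Ensembl annotation of the genome build WBcel235 (ce11). This held for 183 of 346 annotated snoRNA genes. They sat in 159 distinct host genes, 23 hosts held more than 1 of them, and 3 snoRNA genes had 2 overlapping hosts. Their lengths ran from 54 to 325 bp with a median of 128 bp, and 150 of 183 (81.97%) lay fully inside an intron of a host transcript. Of the other snoRNA genes, 130 lay outside protein-coding genes and 33 inside a gene on the opposite strand. These 163 are called non-hosted here.

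snoRNAs guide chemical modification of other RNAs in the nucleolus. Those with boxes C and D direct 2′-O-methylation and those with boxes H and ACA direct pseudouridylation, mainly of ribosomal RNA. An intronic snoRNA can be cut out of its host's pre-mRNA, and in C. elegans many intronic snoRNA genes are also known to have promoters of their own. Within the repressor complex DREAM, which shuts down genes of the cell cycle, LIN-54 binds DNA at the CHR (cell cycle genes homology region) element and an E2F protein binds at its own sites.

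Chromatin immunoprecipitation and sequencing (ChIP-seq) was done on whole young adult animals of mixed sex, aged 65 hours, grown from cultures synchronised by bleaching and starvation at the L1 larval stage. All animals were of strain OP743, which carries the mutation unc-119(tm4063) and the transgene wgIs743. The transgene is a fosmid copy of lin-54 with a TY1, EGFP and 3xFLAG tag (lin-54::TY1::EGFP::3xFLAG) together with unc-119(+), and the immunoprecipitation used an antibody against GFP. There was 1 group of 2 biological replicates with 1 library each, so no condition was compared with another. The tagged protein came from this added fosmid, and whole animals give no cell type. The deposited data were 4 lists of regions. The optimal list holds 3449 peaks that passed an irreproducible discovery rate (IDR) procedure on both replicates, called IDR peaks here. The lists of replicate 1, replicate 2 and the pooled replicates hold 30000 regions each and are more permissive. Each region has a summit and a signal value from the peak caller, with a higher value meaning a stronger region within its list. The depth behind these values is unknown. Wilson 95% intervals are given for shares, and they cover counting error over genes alone.

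A LIN-54 IDR summit lay within 200 bp of 42 of the 183 hosted snoRNA genes, which is 22.95% (Wilson interval 17.45 to 29.56%). The background over introns of all protein-coding genes was low. When all these introns were divided into windows of the median member length, 2182 of 223103 windows (0.978%) had an IDR summit within 200 bp. The windows were not limited to introns of the hosts or matched for distance to a promoter. Of the 150 hosted genes within a host intron, 26% had a summit. Of the 123 lying 300 bp or more from the host's promoter windows, defined below, 25.2% did. Non-hosted snoRNA genes had a summit more often, 55 of 163 or 33.74% (26.93 to 41.3%), although the intervals overlapped. The share was 31.54% for snoRNA genes outside protein-coding genes and 42.42% for those inside an opposite-strand gene. None of the 183 hosted genes lay within 200 bp of an annotated tRNA or snRNA gene, and the sequence of each occurred once among all snoRNA genes. LIN-54 summits were thus found beside both kinds of snoRNA gene, and for the hosted genes far above the intronic background. That background does not apply to snoRNA genes outside protein-coding genes, and none was counted for them. The distance to tRNA and snRNA genes is given for the hosted genes alone.

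**Figure D1:**
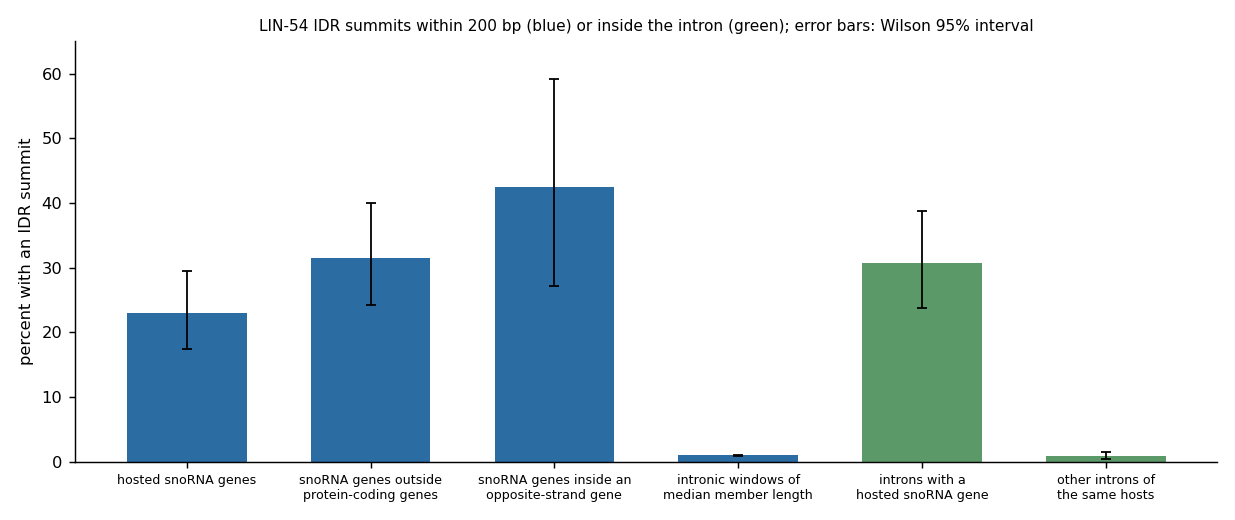
Percent of features with a LIN-54 IDR summit, with Wilson 95% intervals as error bars. Blue bars count summits within 200 bp of snoRNA genes or intronic windows, and green bars count introns that hold a summit; hosted snoRNA genes stood at 22.95% against 0.978% of intronic windows.

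The summits were concentrated just upstream of the snoRNA. Among the 42 genes, the strongest summit lay upstream of the snoRNA 5′ end in 32 (76.19%, interval 61.47 to 86.52%), inside the snoRNA gene in 6 and downstream in 4. In 30 of 42 (71.43%) it lay 1 to 100 bp upstream, and these 30 genes are called upstream-summit snoRNA genes below. Their summits ran from 89 to 7 bp before the 5′ end, with a median of 35 bp. In bins of 50 bp, 24 IDR summits fell in the bin next to the 5′ end and 6 in the bin before it. No other bin within 1000 bp on either side held more than 6. For the 40 non-hosted genes with such a summit the median was 43.5 bp upstream, but both medians are over genes chosen for a summit in that range. In the bin from 100 to 50 bp upstream there were 9.202 summits per 100 non-hosted genes and 3.279 per 100 hosted genes. This difference was not tested.

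**Figure D2:**
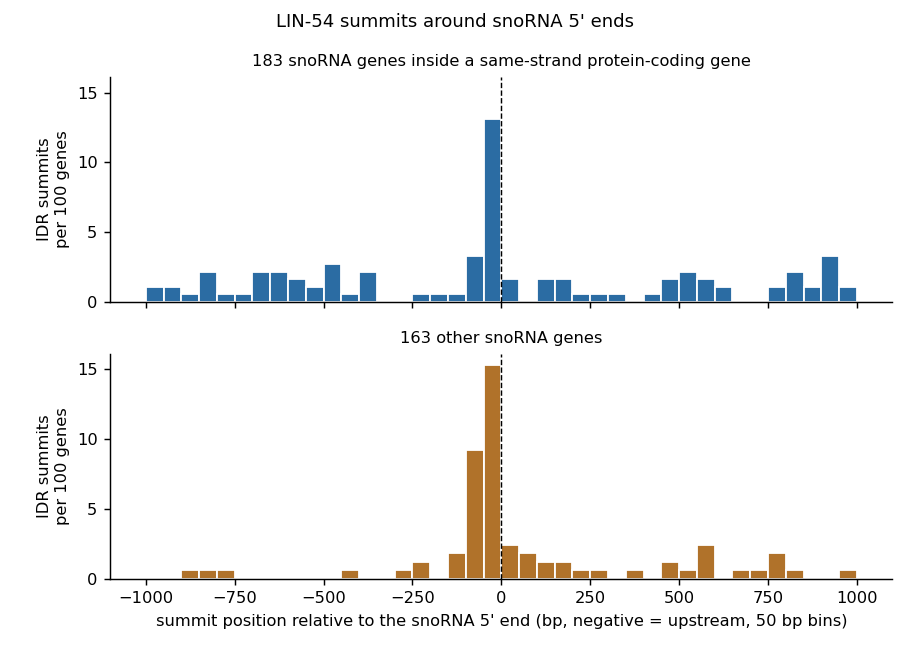
Number of LIN-54 IDR summits per 100 genes in 50 bp bins (vertical axis) against distance from the snoRNA 5′ end in bp, negative upstream (horizontal axis). The upper panel shows the 183 hosted genes and the lower panel the 163 non-hosted genes; in both, the bin next to the 5′ end is the tallest, at 13.11 and 15.34 summits per 100 genes.

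The DNA of these upstream windows carries recognisable sequence elements, and examples are printed here because LIN-54 summits lay in the same windows. Each line is the 100 bp directly upstream of the snoRNA gene, read 5′ to 3′ on the snoRNA's strand from the RefSeq genome of build WBcel235. The first set holds an element called the AAC element here, AACNCG followed 5 bases later by TGTC, with the letters of both parts in capitals. The windows are T06D8.11 at chrII:11224082-11224181 (plus strand), F01D5.12 at chrII:14018442-14018541 (minus strand), C16D9.11 at chrV:8228970-8229069 (minus strand), W04D2.7 at chrV:12491180-12491279 (plus strand) and ZK994.7 at chrV:8500479-8500578 (plus strand).
T06D8.11: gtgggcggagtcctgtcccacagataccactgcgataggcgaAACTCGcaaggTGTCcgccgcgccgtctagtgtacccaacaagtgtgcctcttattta
F01D5.12: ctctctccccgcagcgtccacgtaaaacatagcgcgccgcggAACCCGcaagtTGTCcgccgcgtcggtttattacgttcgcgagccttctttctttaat
C16D9.11: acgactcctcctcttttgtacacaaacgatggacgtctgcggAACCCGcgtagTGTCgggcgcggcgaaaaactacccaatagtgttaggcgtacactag
W04D2.7: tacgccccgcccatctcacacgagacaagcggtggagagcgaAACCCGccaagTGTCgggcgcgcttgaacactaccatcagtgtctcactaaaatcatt
ZK994.7: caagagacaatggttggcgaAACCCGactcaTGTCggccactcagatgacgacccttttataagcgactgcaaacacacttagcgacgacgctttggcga
In the 4 windows of T06D8.11, F01D5.12, C16D9.11 and W04D2.7 the element starts at the same position, 58 bp before the snoRNA. In ZK994.7 it starts 80 bp before.

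The other common form resembles the internal promoter of tRNA genes, whose box A and box B recruit RNA polymerase III. Box A was searched as TGGCNNAG or TGGTNNAG and box B as GTTCGANNC or GTTCAANNC, and matches are in capitals. A box B match that reads GTTCGAA contains the CHR letters TTCGAA. One that reads GTTCAAA, as in C51F7.3 below, contains the CHR letters TTTGAA on the other strand. The searches for box B and CHR can therefore overlap. The windows are T24H7.6 at chrII:6248617-6248716 (plus strand), ZK546.18 at chrII:4942520-4942619 (minus strand), Y43F8C.22 at chrV:19643188-19643287 (minus strand), C51F7.3 at chrV:12303608-12303707 (plus strand) and K11C4.6 at chrV:6888976-6889075 (plus strand).
T24H7.6: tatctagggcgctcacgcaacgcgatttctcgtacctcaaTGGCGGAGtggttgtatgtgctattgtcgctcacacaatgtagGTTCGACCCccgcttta
ZK546.18: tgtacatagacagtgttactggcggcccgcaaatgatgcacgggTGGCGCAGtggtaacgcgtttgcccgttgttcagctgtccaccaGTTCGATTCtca
Y43F8C.22: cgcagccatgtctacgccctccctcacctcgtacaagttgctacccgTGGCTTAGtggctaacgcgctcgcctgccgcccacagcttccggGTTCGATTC
C51F7.3: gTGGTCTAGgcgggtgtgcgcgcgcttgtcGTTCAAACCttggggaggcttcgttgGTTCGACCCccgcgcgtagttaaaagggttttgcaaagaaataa
K11C4.6: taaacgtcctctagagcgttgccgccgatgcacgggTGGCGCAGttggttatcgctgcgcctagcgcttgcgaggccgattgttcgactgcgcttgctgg
In T24H7.6, ZK546.18 and Y43F8C.22 box A comes first and box B follows close to the snoRNA, which is the order in a tRNA gene. C51F7.3 has its box A at the far edge of the window and more than 1 box B match. K11C4.6 has box A alone by these letters.

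For contrast, the next windows belong to an upstream-summit gene without a match, C10C6.8, and to a gene without any IDR summit nearby, K12D12.8 in the topoisomerase gene top-2. Neither has capitals because neither has a match to the exact letters. C10C6.8 still holds stretches that differ from box A and from box B by a single letter each. The windows are C10C6.8 at chrIV:11474192-11474291 (minus strand) and K12D12.8 at chrII:11876531-11876630 (plus strand).
C10C6.8: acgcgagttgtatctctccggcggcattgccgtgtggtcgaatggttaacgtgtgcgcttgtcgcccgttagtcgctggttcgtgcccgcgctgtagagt
K12D12.8: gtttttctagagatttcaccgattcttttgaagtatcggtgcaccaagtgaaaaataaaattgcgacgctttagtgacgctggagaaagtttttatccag

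Counted over all 30 upstream-summit genes, box A was present in the 100 bp upstream in 15, box B in 9, box A followed by box B in 7 (23.33%) and the AAC element in 8 (26.67%). At least 1 of the 3 elements was present in 24 of 30. Among the 141 hosted genes without a nearby IDR summit, box A was found in 5 (3.546%), box B in 2 (1.418%), the AAC element in 1 (0.7092%) and any of them in 8 (5.674%). Of the 12 hosted genes with a summit elsewhere within 200 bp, 5 had an element, and in 3 of them it was the AAC element. The AAC element was assembled from the sequences of these same genes, so its count in them is fixed by that choice. The exact letters for boxes A and B were also set after the sequences had been read, so the contrasts between these groups follow in part from that choice and are a description.

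These windows were also rich in G and C, with a median GC content of 56.5% against 39% for the hosted genes without a summit. Among 12021 windows of 100 bp from introns with at least 50% GC, box A letters occurred in 8.244%, box B in 2.304% and the AAC element in 1.364%. In all 293389 intronic windows the shares were 3.008%, 0.9636% and 0.1333%. These shares show how often the letters occur in introns; the 30 windows served to set the letters, so they are not compared with them, and the part of base composition was not tested. On the opposite strand of the same 30 windows box A and box B were found in 1 each and the AAC element in 0, which the choice of letters on the snoRNA's strand also favours. Among the 612 annotated tRNA gene sequences, the same letters matched box A in 57.52% and box B in 95.92%, and the AAC element in 0. An IDR summit lay within 200 bp of 282 of these 612 tRNA genes (46.08%), so LIN-54 summits were not particular to snoRNA genes.

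**Figure D3:**
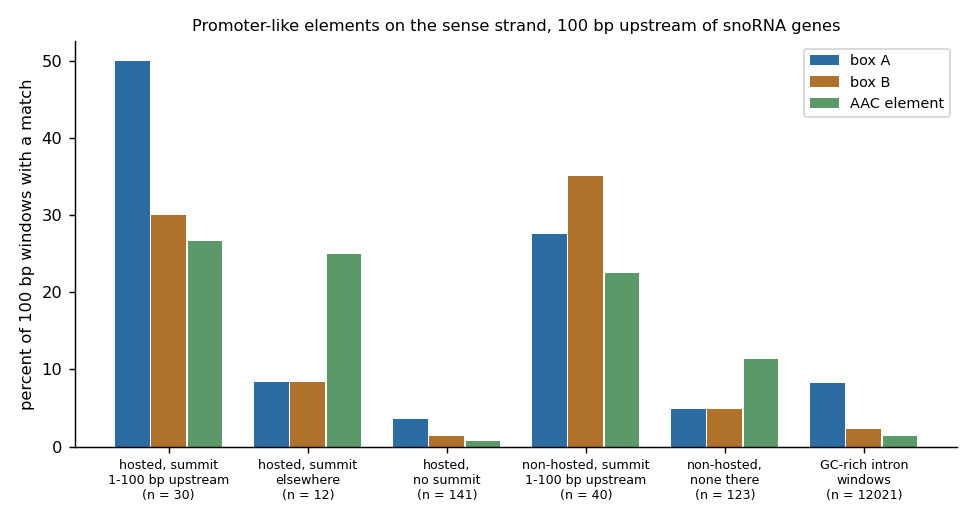
Percent of 100 bp windows (vertical axis) with a box A, box B or AAC element match on the snoRNA's strand, for hosted genes by summit position, non-hosted genes, and GC-rich intronic windows. Box A is present at 15 of the 30 hosted genes with an upstream summit and at 3.546% of the 141 without a summit. The letters were set after the sequences of these genes had been read, so the bars are a description and not a test of enrichment.

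The 8 genes with the AAC element and the 16 with a box and no AAC element differed in layout. AAC elements started between 80 and 57 bp upstream, with the start at 58 bp in 5 of the 8. Their LIN-54 summits lay 35 to 9 bp upstream with a median of 17.5 bp, between the element and the snoRNA. Box A started at a median of 62 bp and box B at a median of 16 bp upstream. At genes with a box and no AAC element the summits lay 69 to 7 bp upstream with a median of 42.5 bp, between those medians. The snoRNA genes behind AAC elements were shorter, with a median of 78.5 bp against 126 bp, although the ranges of 67 to 178 and 68 to 139 bp overlapped. C08D8.3 holds both an AAC element and a box A.

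Some genes did not follow the pattern by these exact letters and positions. The 6 upstream-summit genes without a match were Y71D11A.7, C05D2.15, Y38F2AR.14, D1046.6, C10C6.8 and W06A7.12. Having no match does not mean that no similar sequence is there. At C05D2.15 the 100 bp window ends within box B letters, and C10C6.8 holds near matches to both boxes. An AAC element lay upstream of 3 genes whose strongest summit was elsewhere. The summit lay 177 bp after the 5′ end at F54F11.6, 130 bp after it at Y73B6A.14, and 12 bp after it at smy-2. C02C6.13, inside lron-3 on X, had the AAC element 59 bp upstream and no region in any of the 4 lists within 200 bp. Non-hosted genes showed the same elements, with box A at 27.5%, box B at 35.0% and the AAC element at 22.5% of the 40 with an upstream summit. Without such a summit the AAC element was present at 14 of 123 non-hosted genes (11.38%) and at 4 of 153 hosted genes (2.614%).

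The CHR element was uncommon under these peaks. TTCGAA or TTTGAA, on either strand within 50 bp of the summit, was present at 5 of the 42 IDR peaks near hosted snoRNA genes (11.9%, interval 5.194 to 25%). Over all IDR peaks the share was 33.43%, and over the 1168 outside every protein-coding promoter window it was 25.09%. The E2F letters TTCCCGC or TTCGCGC, and likewise TTGCCGC or TTGGCGC, were present at 1 of 42 (2.381%, interval 0.4215 to 12.32%) against 17.19% and 10.27%. The CHR share lay below that of all IDR peaks beyond its interval, and its upper bound was just under the share outside promoters. The base composition of these sets of peaks was not counted, and its part in the CHR shares was not tested. Within 100 bp of the summit the shares near hosted snoRNA genes were 21.43% for CHR and 11.9% for E2F. The shares over all IDR peaks were counted within 50 bp only, so the wider shares cannot be set against them.

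The strongest LIN-54 peaks at hosted snoRNA genes were well above the middle of the list. Over the 42 genes the IDR signal ran from 111 to 947 with a median of 297, against a median of 177 over all 3449 IDR peaks. Their ranks in the list ran from 112 to 2932 with a median of 856. The 30 upstream-summit genes had a median of 336 and the 12 with a summit elsewhere a median of 194. No hosted gene came near the strongest peak of the list, which reached 7882.

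ZK994.7 in pxn-1, a peroxidasin of the extracellular matrix, had the strongest nearby peak. The gene lies at chrV:8500579-8500645 on the plus strand, and the signal was 490.5 in replicate 1, 441.4 in replicate 2 and 946.6 in the IDR list, at rank 112. The summit was 26 bp upstream. It stood above every other member in both replicates and in the IDR list, and no IDR peak lay in the promoter window of pxn-1. Host promoter windows covered the 1000 bp before and the 300 bp after each 5′ end of the host.

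C51F7.3 and C51F7.4 lie next to each other in frm-7, a gene for a FERM domain protein, and share a single peak. Its signal was 386.4 in replicate 1, 363.0 in replicate 2 and 751.3 in the IDR list. The summit lay 69 bp upstream of C51F7.3 and 40 bp after the 5′ end of C51F7.4. The same binding site is therefore counted for both genes, by position as upstream for C51F7.3 and as internal for C51F7.4.

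Y43F8C.22, at chrV:19643050-19643187 and box H/ACA-like by the letter rule given below, reached 209.9 in replicate 1, 276.1 in replicate 2 and 495.5 in the IDR list. F11A10.9 in rbm-34, which encodes an RNA-binding protein, reached 230.0, 224.0 and 463.8 in the same order. C16D9.11 in rol-3, a receptor tyrosine kinase gene, reached 237.2, 190.0 and 423.6. These 3 have summits 45, 19 and 35 bp upstream, and none of their hosts had a promoter peak.

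F01D5.12 in F01D5.10 had a signal of 224.4 in replicate 1, 180.5 in replicate 2 and 413.5 in the IDR list. T06D8.11 in plpr-1 had 210.3, 204.0 and 411.6. C08D8.3 in C08D8.1 had 224.8, 157.5 and 395.3, and was the only hosted gene with 2 IDR summits within 200 bp. All 3 carry the AAC element, have their strongest summit 17, 9 and 14 bp upstream and have hosts without a promoter peak. C10C6.8 in catp-8, a P-type ATPase gene, had 177.6, 212.5 and 386.7, with the summit 60 bp upstream. Its host has a weaker promoter peak of its own, at an IDR signal of 121.8.

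At the remaining 2 of the 12 strongest the host's promoter window covers the snoRNA peak. Y37E3.20 in pcyt-2.1, which encodes an enzyme of phosphatidylethanolamine synthesis, had 338.7 in replicate 1, 235.4 in replicate 2 and 566.0 in the IDR list, with the summit 18 bp upstream. F39B2.14 in tmem-107, a ciliary transition zone gene, had 258.7, 274.8 and 530.9, with the summit 108 bp upstream. At these genes a peak of the snoRNA and a peak of the host promoter cannot be told apart.

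The replicates ordered the genes alike. Over the 40 near-summit genes with a region in both replicate lists, Spearman's rho of the 2 signals was 0.853, across genes and not across samples. Upstream-summit genes had a median signal of 170.6 in replicate 1 (range 49.1 to 490.5, n = 30) and 160.3 in replicate 2 (51.1 to 441.4, n = 29). The 2 values are set side by side only, since the formula and depth behind each list are unknown. F38E11.14 in cng-3 had no region in replicate 2, and C24A1.8 in elf-1 none in replicate 1. The IDR list was made from both replicates, so presence in both is partly set by how the list was built.

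**Figure D4:**
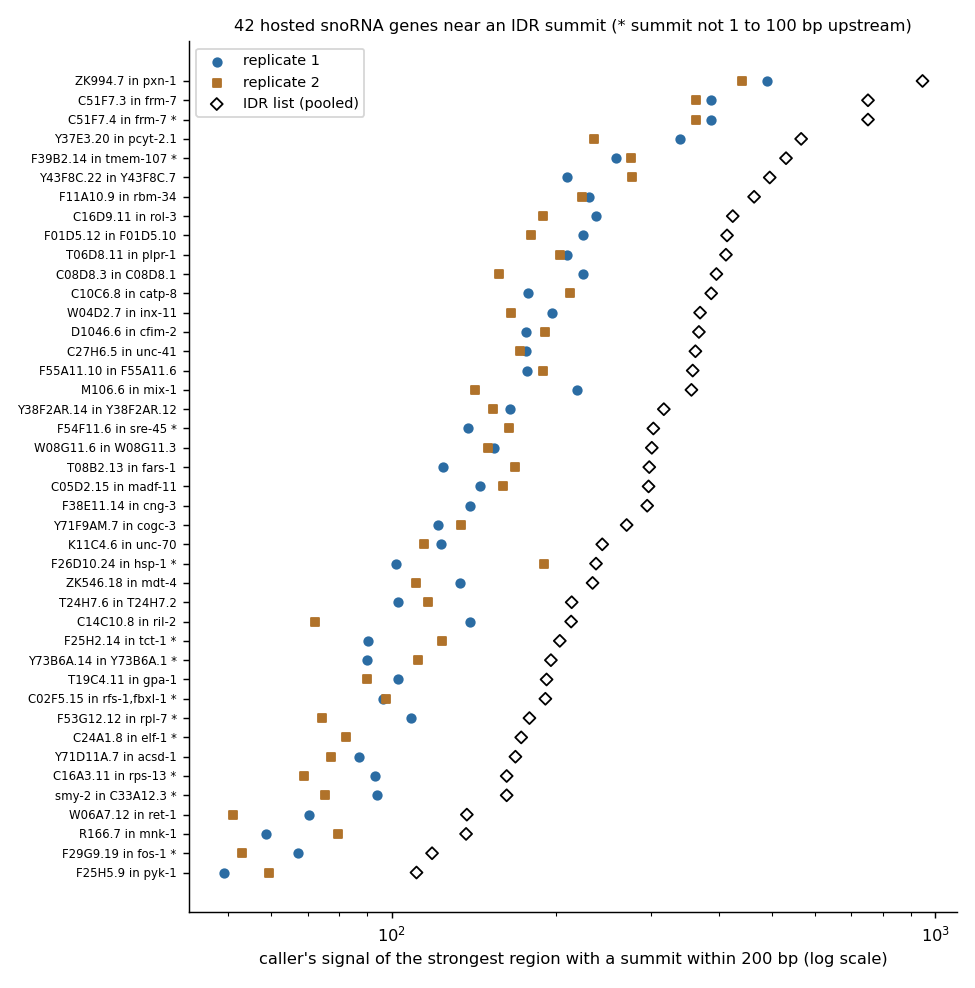
Caller's signal on a log scale (horizontal axis) of the strongest region with a summit within 200 bp, for each of the 42 hosted snoRNA genes near an IDR summit (vertical axis, with the host). Circles are replicate 1, squares replicate 2 and open diamonds the IDR list; ZK994.7 is highest in all 3, and an asterisk marks the 12 genes whose strongest summit is not 1 to 100 bp upstream.

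The more permissive lists added further regions, but no share over introns was counted for these lists. In the pooled list, the 50 bp bin next to the 5′ end held 16.94 summits per 100 hosted genes. The bin from 900 to 950 bp after the 5′ end held 7.65, so such regions were also common away from the snoRNA genes. The shares below are therefore not read as a trait of the snoRNA genes. A pooled region had its summit within 200 bp of 100 of the 183 genes (54.64%), and 83 (45.36%) had a region in both replicate lists. Of the 141 genes without an IDR summit, 43 (30.5%) had a region in both replicate lists and 66 (46.81%) had none in any list. In the pooled list the strongest of these was at F22D6.16 in prpf-4, a splicing factor gene, at 90.01, with 36.3 in replicate 1 and 54.9 in replicate 2. In replicate 1 the strongest was at F54E7.11 in rps-12, at 73.0. In replicate 2 it was at F19H8.6 in mltn-9, at 114.4 and rank 1277 of that list, with no region in replicate 1 or in the pooled list. F19H8.6 has a box A match upstream, so its region was seen in a single replicate at a gene with one of the elements.

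Around the 200 bp limit, the genes just inside were C24A1.8 with its summit at 162 bp from the gene, C02F5.15 at 151 bp and F39B2.14 at 108 bp. Just outside were F54E7.10 in rps-12 at 248 bp, Y43B11AR.7 in rps-4 at 265 bp and K02F3.15 in zip-2 at 288 bp. No gene lay between 162 and 248 bp, so the limit fell in a gap.

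Summits were also counted by intron. Of 143 introns that hold a hosted snoRNA gene, 44 (30.77%, interval 23.79 to 38.75%) contained an IDR summit. Of 1227 other introns of the same hosts, 10 did (0.815%, interval 0.4433 to 1.494%), and over all 104901 introns of protein-coding genes the share was 0.595%. Introns with a snoRNA gene were longer, with a median of 390 bp against 128 bp. Among introns of 200 to 1500 bp the counts were 33 of 88 (37.5%) with a snoRNA gene, 2 of 435 (0.4598%) for other introns of the same hosts and 377 of 31525 (1.196%) for all. Outside the host's own promoter windows, a summit was held by 23.78% of introns with a snoRNA gene and by 0.5705% of the others. Introns with a snoRNA gene thus held an IDR summit more often than other introns of the same hosts. Most introns with a snoRNA gene still held none.

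LIN-54 was also frequent at the promoters of the hosts. A host promoter peak was present at 71 of 159 hosts (44.65%, interval 37.14 to 52.42%), against 2859 of 19973 protein-coding genes (14.3%). At some of these hosts it is the same peak as the one within 200 bp of the snoRNA gene. This holds for C33A12.3, F55A11.6, cfim-2, cogc-3, fbxl-1, pcyt-2.1, tct-1 and tmem-107. The host share thus partly counts peaks at snoRNA genes again. Among hosts with such a peak the IDR signal had a median of 233 and ran from 100.2 to 4348. By gene, 90 of the 183 snoRNA genes (49.18%) had a host with a promoter peak. The strongest was at cdc-48.1, an AAA ATPase gene with 2 snoRNA genes, at 2094 in replicate 1, 2269 in replicate 2 and 4348 in the IDR list. Neither of its snoRNA genes, C06A1.8 and C06A1.9, had an IDR summit within 200 bp.

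Upstream summits and host promoter peaks were also counted together, gene by gene. Both were present at 10 of the 183, an upstream summit alone at 20, a host promoter peak alone at 80 and neither at 73. At 4 of the 10, namely Y37E3.20, D1046.6, F55A11.10 and Y71F9AM.7, the upstream summit itself lies in the host's window and is the same peak. The host had a promoter peak for 10 of 30 upstream-summit genes (33.33%, interval 19.23 to 51.22%) and for 80 of 153 others (52.29%, interval 44.41 to 60.05%), and these intervals overlap. Of the 30 upstream summits, 26 (86.67%) lay outside every window of the host and 23 (76.67%) outside every protein-coding window. Upstream-summit genes lay further into their hosts, at a median of 3567 bp from the host's start against 1536 bp, with overlapping ranges.

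M106.6 in mix-1, which encodes a condensin subunit, shows 2 separate peaks. The peak 40 bp upstream of the snoRNA had a signal of 219.2 in replicate 1, 142.5 in replicate 2 and 355.6 in the IDR list, while the mix-1 promoter peak reached 233.4 in the IDR list. R166.7 in mnk-1, a protein kinase gene, was the reverse, with 136.9 at the snoRNA and 232.7 at the host promoter. These examples were chosen after their values were seen.

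Most hosts with a ribosomal protein symbol, rpl or rps, had an IDR peak at the promoter. Their snoRNA genes had no IDR summit 1 to 100 bp upstream. Hosts of ribosomal proteins under other symbols would fall in the remaining hosts. The rpl and rps hosts held 19 snoRNA genes, and 18 of these (94.74%) had a host with a promoter peak. An upstream summit was found at 0 of 19, for which the Wilson interval reaches 16.82%. An IDR summit lay elsewhere within 200 bp at 2 of 19, F53G12.12 in rpl-7 and C16A3.11 in rps-13, at 17 and 177 bp after the 5′ end. For the 155 genes in all remaining hosts, 29 (18.71%, interval 13.35 to 25.58%, which overlaps the first) had an upstream summit and 66 (42.58%) a host promoter peak. In the 9 genes of a middle group, set by host symbol and made of eef-1G, eif-4A3, fars-1 and nol-56, 1 had an upstream summit, T08B2.13 in the phenylalanyl-tRNA synthetase gene fars-1, and 6 a host promoter peak. Promoter peaks were common at ribosomal protein genes in general, at 67 of 78 (85.9%), so the hosts among them, 12 of 13, were near that level. The exception among the 13 was rpl-2, with 57.7 in replicate 1 and 29.9 in replicate 2. The host groups were defined with results of these data known, and the remaining hosts still include some with roles in translation or rRNA processing, such as iff-2, mrps-2, ubl-1 and utp-20.

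**Figure D5:**
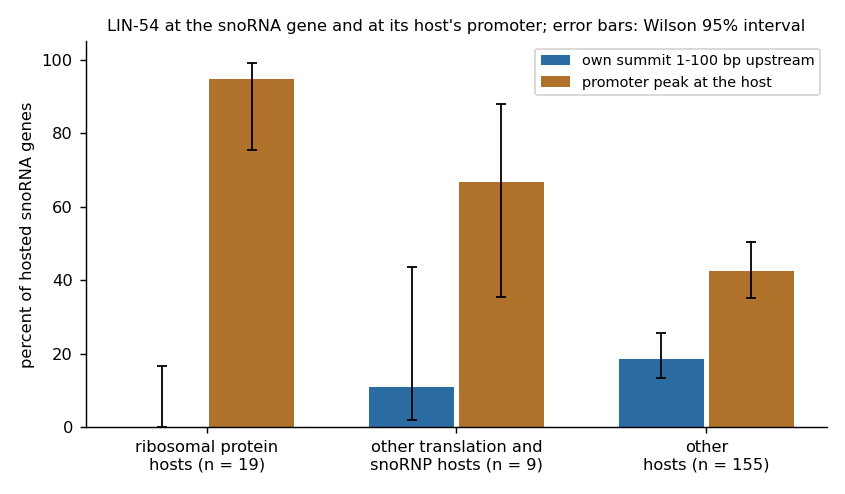
Percent of hosted snoRNA genes (vertical axis) with an IDR summit 1 to 100 bp upstream of the snoRNA (blue) and with a promoter peak at the host (brown), by kind of host, with Wilson 95% intervals as error bars. Ribosomal protein hosts, taken by the symbols rpl and rps, stand at 0 of 19 for the snoRNA and 18 of 19 for the promoter.

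The hosts with most snoRNA genes fell in the promoter-only class. The host nol-56 encodes a core protein of box C/D snoRNA particles and holds 4 snoRNA genes, K07C5.10, K07C5.11, K07C5.12 and K07C5.18. Its promoter peak had a signal of 169.6 in replicate 1, 97.2 in replicate 2 and 270.8 in the IDR list. The topoisomerase II gene top-2, with K12D12.6, K12D12.7 and K12D12.8, had 671 and 590 in the replicates and 1258 in the IDR list. The ribosomal protein gene rpl-6, with R151.11, R151.12 and R151.13, had 171 and 182 in the replicates and 349.5 in the IDR list. None of these 10 snoRNA genes had an IDR summit within 200 bp. In top-2 a single weak pooled region of signal 39.6 lay within 200 bp of all 3 snoRNA genes, and it had a counterpart of 33.9 in replicate 2 and none in replicate 1.

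By snoRNA class, sequence features placed few genes with confidence. A gene was called box C/D-like when TGATGA lay in its first 25 bases and CTGA in its last 25, and otherwise box H/ACA-like when ACA lay in its last 8 bases. By this rule 7 were C/D-like, 61 H/ACA-like and 115 neither. A nearby IDR summit was found at 3 of 7, 17 of 61 (27.87%) and 22 of 115, with an upstream summit at 3, 13 and 14. LIN-54 summits were thus found at genes with either label. The H/ACA-like label rests on the letters ACA alone, since no box H was searched. Annotated ends that do not match the mature RNA would put a gene in the third class.

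The share also varied with length and chromosome. An upstream summit was present at 13 of 48 genes under 100 bp (27.08%), at 16 of 92 with 100 bp or more but under 150 bp (17.39%) and at 1 of 43 of 150 bp or more (2.326%). That long gene is T19C4.11 in gpa-1, a G protein gene, with 102.5 in replicate 1, 89.8 in replicate 2 and 192.5 in the IDR list. On chromosome V, 15 of 36 genes (41.67%) were near an IDR summit, and on I, II, III and IV the counts were 7 of 36, 7 of 35, 5 of 38 and 8 of 28. On X it was 0 of 10, for which the interval reaches 27.75%. The nearest IDR summit to these X genes lay 19442 to 163951 bp away. Shares by chromosome over all introns or IDR peaks were not counted. The differences between chromosomes are therefore not read as a trait of the snoRNA genes.

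The proteins that assemble with snoRNAs were themselves encoded by genes with LIN-54 at the promoter. All 10 genes of a list of such proteins had a promoter peak, against the 14.3% of all protein-coding genes, with IDR signals from 120.3 to 1775. Among box C/D proteins, nol-58 had 910 in replicate 1 and 868 in replicate 2, fib-1, the methyltransferase, had 173 and 186, nol-56 is given above, and snu-13 had 98.2 and 144.2. Among box H/ACA proteins, dkc-1, the pseudouridine synthase, had 291 and 342, Y48A6B.3, the NHP2 protein, had 557 and 704, garr-1, the GAR1 protein, had 99.9 and 139.7, and nola-3, the NOP10 protein, had 94.8 and 160.5. The assembly ATPases ruvb-1 and ruvb-2 had 65.1 and 59.0, and 281.8 and 284.4. For all but nol-56 and ruvb-2 the same peak also lay in the window of another gene, such as ran-1 for dkc-1 and daf-18 for garr-1, so it cannot be assigned to one of them.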

How the data were processed

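LIN-54 ChIP-seq peaks from 2 biological replicates of whole young adult animals were used as deposited. Per the file headers and notes deposited beside them, the authors listed regions of each replicate, and of both pooled, against a control file as input to IDR, and thresholded the result to the optimal list on ce11. The authors' aligner, peak caller and IDR threshold and the formula of the deposited signal value were not given in the sources used here, so signal was ranked within a list and otherwise printed side by side or by its rank correlation, and the read depth of each library is unknown. Replicates were compared through the deposited 30000-region lists.

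Summit positions were read from the region start and summit offset and set against the Ensembl release 115 annotation with Python 3.11.15, numpy 2.4.6, pandas 2.3.3 and scipy 1.17.1. Figures used matplotlib 3.10.9. The counting rules were checked on made-up cases with known answers. Shares carry Wilson 95% intervals, and no test was run because there is 1 group and genes share hosts and peaks. CHR and E2F letters were searched on both strands, boxes A and B and the AAC element on the snoRNA's strand alone, all without mismatches.

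Members, host groups, motif lists and windows were chosen with earlier results of these data known. Members named were the 12 with the highest IDR signal within 200 bp, the 8 strongest outside host windows, those in hosts with 3 or more members, the 6 closest to the 200 bp limit, and the list of snoRNA protein genes; others are examples chosen after their values were seen. The C. elegans symbol gar-1 belongs to a receptor gene, so the GAR1 protein was taken by locus tag as garr-1. Alternatives were other distances, windows, motif distances, intron lengths and peak sets, and each replicate left out in turn. After the data were seen, the upstream summit count, the element counts and their alternatives were added.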

Additional observations from a re-analysis of the deposited data

How the results depend on the processing

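Of 77 alternatives, 65 kept the share both within its Wilson interval and within 1.5 times its main value (the median position within its rank-based interval), 12 moved it and 0 reversed it. The cause of these moves was not tested. With a distance of 500 bp, the share of hosted snoRNA genes with an IDR summit was 34.43% and that of box H/ACA-like genes 50.82%. With the strongest 1724 IDR peaks alone, hosts with a promoter peak were 33.33%, introns with a snoRNA gene that hold a summit 22.38% and other introns of the same hosts 0.326%. The host share was 33.96% with promoter windows of 500 bp upstream to 100 bp downstream, and other introns of 200 to 1500 bp stood at 0.4598%. Within 100 bp of the summit, CHR was at 21.43% and E2F at 11.9% of nearby peaks. With only the strongest 3449 regions of each replicate, 20.77% of the hosted genes had a region in both. Leaving out a replicate replaced the IDR list by the strongest 3449 regions of the other. The E2F share was then 4.762 to 6.667%, which is 2 or 3 peaks in place of 1, under replicate 2 and replicate 1 alone. The share of hosted genes near a summit was 24.04 to 24.59%, the host share 43.4 to 45.28%, the upstream-summit share 14.75 to 16.94% and the share of those with an element 77.42 to 77.78%. No paired analysis was possible because there is 1 group and no test between groups. Limits are the unknown depth, the unstated signal formula, the annotated snoRNA ends on which upstream distances rest, and element letters set after the sequences were seen.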
